A study of Mus musculus with 6 samples.

Results

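Genes of the MS4A family, 10 in number, were followed in RNA-seq libraries labelled mouse salivary gland: Ms4a1, Ms4a2, Ms4a3, Ms4a4a, Ms4a4b, Ms4a4c, Ms4a6b, Ms4a6c, Ms4a6d and Ms4a7. They were taken by symbol, and all 10 were found among the 41325 gene rows of each library. The study held 6 libraries, 3 from an elemental diet group and 3 from a saline control group, all from female ICR mice, an outbred stock, which arrived at 10 weeks of age and had 7 days to settle in. Every mouse, controls included, was injected with 5-fluorouracil (5-FU), an antimetabolite that blocks DNA synthesis, at 20 mg/kg per day on 2 days of each of 3 weeks. The elemental diet, a liquid formula with amino acids in place of protein, was given by mouth at 1.6 kcal in 0.8 mL per day, in 2 doses on 5 days a week over the same 3 weeks, and the controls received saline in the same volume and on the same days. No group without 5-FU was included, so the contrast was elemental diet against saline under 5-FU. The labels give 3 mice per group without saying that each library is 1 mouse, so a p-value measures the spread between these libraries, which may be technical.

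MS4A genes encode small proteins that cross the membrane several times, and most of them sit side by side in one gene cluster. Several are textbook lineage markers of blood cells: Ms4a1 is CD20 of B cells, Ms4a2 is the beta chain of the high-affinity IgE receptor of mast cells and basophils, and Ms4a3 is a marker of granulocyte and monocyte precursors. Others are known from T cells (Ms4a4b, Ms4a6b) or from monocytes and macrophages (Ms4a4a, Ms4a4c, Ms4a6c, Ms4a6d, Ms4a7).

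The tissue label was checked first. Of 14 markers of salivary gland epithelium, Smgc, Pip, Bpifa1 and Dcpp1 had no read in any of the 6 libraries. The acinar water channel Aqp5 had 4 reads in the elemental diet libraries together and 2 in the saline libraries. Amylase (Amy1) had 297 and 541 reads and Egf 244 and 550. Summed over the 14 genes, the level was 9.89 to 14.3 normalized CPM with elemental diet and 22.4 to 24.6 with saline (CPM, the reads of a gene as a share of its library's reads, here scaled for library composition). The extraction text names fibroblasts or keratinocytes. The keratinocyte keratins Krt5 and Krt14 had 2 and 8 reads in the elemental diet libraries together and 0 and 14 in the saline libraries, and the fibroblast collagen Col1a1 had 9408 and 4341. Genes of B cells, by contrast, summed to 1001 to 1072 normalized CPM with elemental diet and 6916 to 7278 with saline. Smgc, Pip, Bpifa1, Dcpp1 and Aqp5 were thus at or near 0 while Amy1 and Egf were detected at a few CPM, and the values below describe the libraries as labelled. The libraries held 29053287 to 33073125 reads assigned to genes. A count of 0 still allows 3 reads, or 0.0907 to 0.103 CPM before scaling for composition (counting error only).

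Promoters are shown for the members that rose and for pairs of related genes among those that fell. They come from RefSeq on build GRCm38.p6. Each runs from 250 bases before to 50 bases after the annotated start, 5′ to 3′ on the gene's strand. Of the 10 members 8 had an entry, with 9 promoters between them, Ms4a7 having a second. Ms4a1 and Ms4a6d had none. The first pair are the promoters of Ms4a2 (chr19:11623670-11623969, minus strand) and Ms4a3 (chr19:11640802-11641101, minus strand), the members that were higher with elemental diet. Capitals mark a GATA motif (AGATAA) in Ms4a2, and in Ms4a3 a PU.1 core (GAGGAA) directly followed by a C/EBP motif (TTGCNNAA).
Ms4a2: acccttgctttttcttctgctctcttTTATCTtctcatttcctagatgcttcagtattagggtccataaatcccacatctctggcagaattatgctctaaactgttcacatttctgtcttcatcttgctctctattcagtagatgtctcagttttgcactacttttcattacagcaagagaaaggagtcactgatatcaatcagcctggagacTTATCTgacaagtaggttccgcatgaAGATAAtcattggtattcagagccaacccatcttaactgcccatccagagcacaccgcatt
Ms4a3: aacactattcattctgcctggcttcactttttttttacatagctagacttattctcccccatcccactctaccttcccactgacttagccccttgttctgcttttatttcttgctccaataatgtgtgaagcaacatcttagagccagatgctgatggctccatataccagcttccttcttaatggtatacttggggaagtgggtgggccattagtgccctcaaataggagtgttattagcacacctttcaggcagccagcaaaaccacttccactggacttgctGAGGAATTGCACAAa
The Ms4a2 promoter held 3 matches to the GATA motif, the letters read by the GATA factors of mast cells, basophils and red cell precursors. They started at -224 and -37 on the opposite strand and at -11 on the gene's own strand, counted from the annotated start. No promoter of the other 7 members in the table held that motif, and 11.2% of 32851 RefSeq promoters of the same length did, on either strand. The C/EBP motif was found in Ms4a3 alone, starting at base 42 of the transcribed part, against 10.8% of all promoters. The PU.1 core was found in Ms4a3, Ms4a4b, Ms4a4c and Ms4a7, which is 4 of 8 members, against 28.3% of all promoters. The E-box CANNTG was in promoters of 5 of 8 members and in 72.3% of all promoters. The Ms4a7 promoter at chr19:11336097-11336396 held the PU.1 core, and its other promoter, at chr19:11334646-11334945, held the E-box. A match describes letters only, and binding was not measured.

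The next pair are Ms4a4b (chr19:11443308-11443607, plus strand) and Ms4a4c (chr19:11407411-11407710, plus strand), near copies that fell together. Capitals mark the PU.1 core in both and the octamer (ATGCAAAT, here on the opposite strand) in Ms4a4c. In Ms4a4b they also mark the letters of a TATA box (TATAAA), starting at -140.
Ms4a4b: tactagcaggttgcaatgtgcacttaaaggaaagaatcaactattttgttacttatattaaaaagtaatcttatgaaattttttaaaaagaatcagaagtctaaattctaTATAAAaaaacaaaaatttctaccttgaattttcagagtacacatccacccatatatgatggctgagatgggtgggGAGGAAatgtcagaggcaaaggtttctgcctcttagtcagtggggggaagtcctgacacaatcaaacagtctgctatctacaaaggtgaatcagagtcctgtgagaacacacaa
Ms4a4c: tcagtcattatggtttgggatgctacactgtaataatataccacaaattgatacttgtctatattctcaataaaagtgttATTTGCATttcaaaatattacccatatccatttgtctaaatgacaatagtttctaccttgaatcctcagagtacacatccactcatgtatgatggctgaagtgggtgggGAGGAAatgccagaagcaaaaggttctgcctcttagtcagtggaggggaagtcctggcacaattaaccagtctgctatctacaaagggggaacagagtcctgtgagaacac
The Ms4a4b and Ms4a4c promoters had 237 identical bases in a global alignment of their 300 bases, or 79%. The octamer, the letters read by the Oct factors of lymphocytes, was in Ms4a4c alone of the 8 members and in 1.74% of all promoters. The letters TATAAA were in Ms4a4b alone and in 13.6% of all promoters, and their use as a TATA box was not tested. The last pair are Ms4a6b (chr19:11518309-11518608, plus strand) and Ms4a6c (chr19:11469118-11469417, plus strand), with their longest shared run in capitals.
Ms4a6b: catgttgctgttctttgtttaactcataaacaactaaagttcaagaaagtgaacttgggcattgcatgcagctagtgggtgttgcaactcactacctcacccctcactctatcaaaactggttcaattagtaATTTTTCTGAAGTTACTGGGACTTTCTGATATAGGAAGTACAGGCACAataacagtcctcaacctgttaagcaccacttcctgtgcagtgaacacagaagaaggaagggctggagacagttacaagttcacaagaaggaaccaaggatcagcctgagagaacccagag
Ms4a6c: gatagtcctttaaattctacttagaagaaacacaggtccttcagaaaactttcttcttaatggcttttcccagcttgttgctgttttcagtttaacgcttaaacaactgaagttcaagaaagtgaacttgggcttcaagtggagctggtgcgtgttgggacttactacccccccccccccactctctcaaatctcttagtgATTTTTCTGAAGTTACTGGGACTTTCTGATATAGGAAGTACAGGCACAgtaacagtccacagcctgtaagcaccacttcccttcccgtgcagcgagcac
This run of 48 identical bases started at -118 in Ms4a6b and at -49 in Ms4a6c. Their global alignment held 197 identical bases, or 65.7% of the 300 bases. Among the 26 other pairs of members, Ms4a7 taken by its promoter at chr19:11336097-11336396, identity of the 300 bases was 56.3% to 61.7%. No shared run among them was longer than 12 bases.

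All 10 members passed the filter on low counts and the test. Ms4a2 and Ms4a3 rose with elemental diet, Ms4a1, Ms4a4a, Ms4a4b, Ms4a4c, Ms4a6b, Ms4a6c, Ms4a6d and Ms4a7 fell, and for each of the 10 the values of the 3 elemental diet libraries lay wholly on one side of those of the 3 saline libraries. These counts are to be read against a large change throughout the libraries: 78.1% of 18303 genes tested passed the same test (edgeR's quasi-likelihood test, Benjamini-Hochberg adjusted p under 0.05), 38.0% as higher and 40.2% as lower with elemental diet, and 81.0% had groups that did not overlap. A member passing the test, or having separate groups, was thus close to what most genes did. Every member changed at least 2-fold. Of the 18303 genes 4340 passed the test and were at least 2-fold lower, and 3487 at least 2-fold higher. The members were chosen with earlier results of these data known, so their sizes do not stand for the whole family. Ms4a4d of the same cluster, not among the 10, fell 1.73-fold. The median log2 fold change was -2.15 over the 10 members and -0.08 over all genes tested. In this bulk material, fewer cells of a type, less RNA per cell and a larger share of RNA from other cells cannot be told apart.

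**Figure D1:**
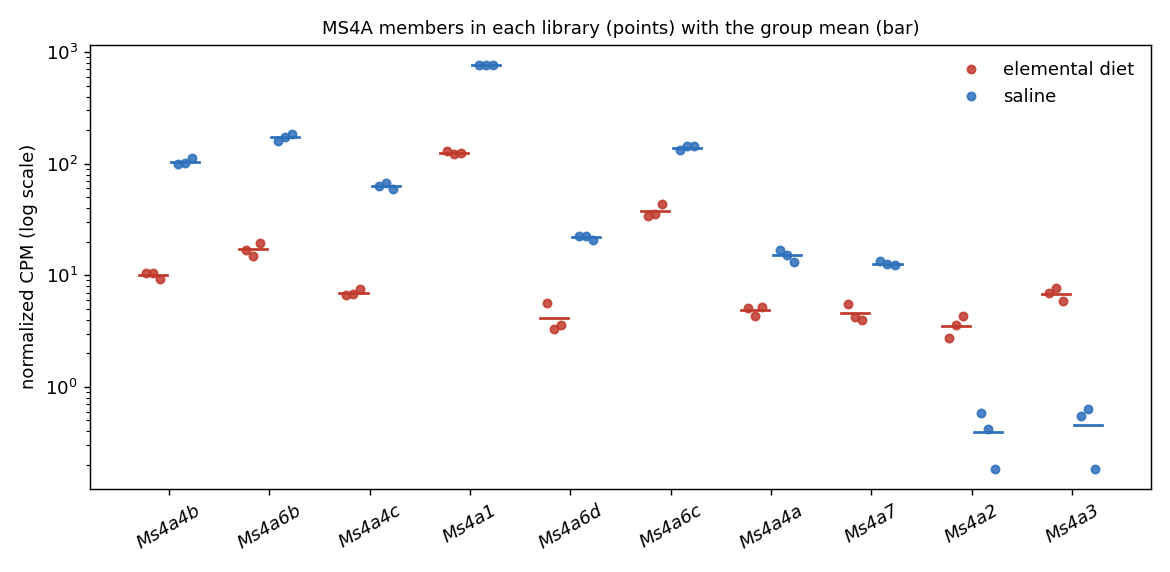
Normalized CPM on a log scale for each member in the 3 elemental diet libraries (red) and the 3 saline libraries (blue), with the group mean as a bar and the members ordered by fold change. The 8 members on the left lie lower with elemental diet, from Ms4a4b at 10.1 against 104 to Ms4a7 at 4.57 against 12.7, and Ms4a2 and Ms4a3 on the right lie higher.

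Ms4a1, the B cell surface protein CD20, was the most abundant member in both groups. Its total reads were 3565, 3570 and 3201 in the elemental diet libraries and 26294, 25580 and 25018 in the saline libraries. The 3 libraries of each group lay close together and the groups were far apart, at 126 ± 4.83 normalized CPM with elemental diet and 766 ± 5.57 with saline (mean ± SD, n = 3 each). The log2 fold change was -2.61 (SE 0.05, edgeR adjusted p = 1.5e-14), or 6.09-fold lower, and 4.41% of genes tested had a lower log2 fold change. All 12 B cell genes of the comparison list fell, with a median log2 fold change of -2.74. Among them Cd79a, the signalling chain of the B cell receptor, was 7.04-fold lower, its partner chain Cd79b 5.96-fold and the tetraspanin Cd37 5.28-fold. The ratio of Ms4a1 to Cd79a reads was 0.07 ± 0.13 on the log2 scale with elemental diet and -0.14 ± 0.06 with saline (mean ± SD, n = 3), a difference of 0.21 with groups that did not overlap (two-sided exact permutation p = 0.1, the smallest that 3 against 3 can give, 0.17 after adjustment over 5 such ratios). Ms4a1 and Cd79a thus changed to a similar degree, within 1.16-fold of each other. The genes with the nearest profile over the 6 libraries, by distance between centred log2 CPM among 13374 candidates, were Tnfrsf13b (TACI, a B cell receptor for BAFF and APRIL) at 0.0486 and Mical1 at 0.0533; these 2 genes were 35.4 ± 1.58 and 20.0 ± 0.991 normalized CPM with elemental diet and 211 ± 0.757 and 119 ± 0.405 with saline. With 2 groups this far apart, the distance depends mostly on the fold change, -2.58 for both Tnfrsf13b and Mical1. A near profile, here and for the members below, thus does not place a gene in a cell type. Of 8 plasma cell genes 7 fell and Sdc1 rose, with a median of -1.42.

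Ms4a2 and Ms4a3 are next to each other at one end of the cluster and were the members that rose. Ms4a2, the beta chain of the IgE receptor, had 74, 105 and 110 reads in the elemental diet libraries and 20, 14 and 6 in the saline libraries. It was low in both groups, at 3.53 ± 0.791 normalized CPM with elemental diet and 0.394 ± 0.198 with saline (mean ± SD, n = 3 each), and the lowest elemental diet library was above the highest saline library. The log2 fold change was 3.14 (SE 0.35, edgeR adjusted p = 1.9e-06), or 8.81-fold, and 96.6% of genes tested had a lower log2 fold change. Reads that span a splice junction numbered 8, 16 and 24 with elemental diet and none with saline. Of the 40 saline reads of Ms4a2, 32 lay in exons and 8 in introns. Unspliced reads, below, are all those that span no junction, including reads within an exon. Fcer1a, the IgE-binding alpha chain, rose 5.38-fold (log2 fold change 2.43, SE 0.37, edgeR adjusted p = 4.3e-05) from 7, 12 and 10 reads to 36, 56 and 38. The gamma chain Fcer1g, which other Fc receptors share, fell 1.30-fold (log2 fold change -0.38). The ratio of Ms4a2 to Fcer1a differed by 0.83 on the log2 scale, with overlapping groups (exact permutation p = 0.3, adjusted 0.38), so on these few reads the sizes of the 2 rises were not told apart.

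The mast cell and basophil list did not move one way: of its 12 genes 6 rose, 4 fell and 2, Hdc and Cd200r3, did not pass the test (median 0.29). The basophil proteases Mcpt8 and Prss34 rose, from 6 and 32 reads in the 3 saline libraries together to 872 and 2658 in the elemental diet libraries. Kit, the stem cell factor receptor of mast cells and of blood precursors, rose 4.25-fold, and the transcription factor Gata2 1.61-fold. The proteases of tissue mast cells Cma1, Mcpt4, Tpsab1 and Tpsb2 were the 4 that fell, with log2 fold changes of -1.82, -1.61, -2.96 and -1.94. Cpa3 rose with a log2 fold change of 0.91, and without composition scaling, at 0.60 with an adjusted p of 0.05, it was no longer called, which left 5 of the 12 genes as higher. The genes with profiles nearest to Ms4a2 were Ypel4 at a distance of 0.585 and Chil3, a chitinase-like protein of myeloid cells, at 0.634, farther off than for Ms4a1, and Chil3 was itself low, at 4.11 ± 1.19 normalized CPM with elemental diet and 0.364 ± 0.229 with saline.

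Ms4a3, also called HTm4, had the largest rise of the 10. Its reads were 190, 225 and 152 with elemental diet and 19, 21 and 6 with saline. Every elemental diet library was far above every saline library, at 6.86 ± 0.862 against 0.455 ± 0.237 normalized CPM (mean ± SD, n = 3 each). The log2 fold change was 3.90 (SE 0.31, edgeR adjusted p = 6.1e-08), or 14.9-fold, and on exon reads alone it was 4.54, or 23.2-fold. Of the 46 saline reads of Ms4a3 47.8% lay in introns, with 11 of 19, 11 of 21 and 0 of 6 in the 3 libraries, whereas 10.9% of its 567 elemental diet reads did. Junction-spanning reads were 127, 142 and 97 with elemental diet and 4, 7 and 6 with saline. Of the granulocyte precursor list 6 of 7 tested genes rose and Gfi1 fell (median 4.46), and all 9 neutrophil genes rose (median 4.19), although Cxcr2 no longer passed the test without composition scaling, at 0.05 against 0.35. Mpo, myeloperoxidase of the primary granule, counted 1966, 2182 and 1868 in the elemental diet libraries and 0, 2 and 11 in the saline libraries, and Prtn3, proteinase 3, rose 10.6-fold. The ratio of Ms4a3 to Mpo was -3.42 ± 0.18 with elemental diet and 2.52 ± 3.10 with saline on the log2 scale (mean ± SD, n = 3). The difference was -5.94 on the log2 scale (exact permutation p = 0.1, the smallest possible, adjusted 0.17). Its saline side rested on 13 Mpo reads in all, with none in the first library, so its size depends on the 0.5 added to each count: it was -5.56 with 1 added, -4.56 without the first saline library and -7.61 without the third. Nearest in profile to Ms4a3 were Atp6v0a4, a proton pump subunit, at a distance of 0.648 and Eci3 at 0.666. HTm4 is known to bind the phosphatase Cdkn3, which acts on Cdk2. Cdkn3 rose 28.9-fold and Cdk2 3.19-fold. The log2 fold change of Cdkn3 was 4.85, beside a median of 4.88 for the cell division genes below. A link of Cdkn3 or Cdk2 to Ms4a3 was not tested.

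Markers of red cell precursors and of dividing cells rose with the same group. All 7 erythroid genes rose, and their summed level was 35422 to 36084 normalized CPM with elemental diet and 2201 to 3442 with saline. All 8 cell division genes rose too, from 136 to 143 summed with saline to 4016 to 4751 with elemental diet. Their part in the member changes was not tested.

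Ms4a4b and Ms4a6b, the members known from T cells, showed the largest falls on total reads. Ms4a4b reads were 287, 307 and 238 with elemental diet and 3416, 3382 and 3638 with saline, or 10.1 ± 0.690 against 104 ± 6.99 normalized CPM (mean ± SD, n = 3 each). All saline libraries were about equally high, and the log2 fold change was -3.36 (SE 0.07, edgeR adjusted p = 6.2e-14), 10.3-fold lower. No more than 1.57% of genes tested had a lower log2 fold change. Ms4a6b had 460, 438 and 497 reads against 5521, 5837 and 5953, with a log2 fold change of -3.34 (SE 0.09, edgeR adjusted p = 6.7e-12), 10.1-fold lower. All 12 T cell genes fell, with a median of -2.92, and their summed level was 99.2 to 109 normalized CPM with elemental diet and 707 to 911 with saline. Tcf7, a transcription factor of naive T cells, was 10.9-fold lower, and Lck, the kinase of the T cell receptor, was 5.28-fold lower. The ratio of Ms4a4b to Cd3e, a chain of the T cell receptor complex, was 0.36 ± 0.24 with elemental diet and 0.81 ± 0.01 with saline on the log2 scale, with groups that did not overlap (difference -0.45, exact permutation p = 0.1, adjusted 0.17). Tnfrsf18 (GITR), a T cell costimulatory receptor with which the Ms4a4b protein is known to associate, fell 4.33-fold, from 686, 624 and 670 reads to 111, 137 and 126. The nearest profiles to Ms4a4b were Tespa1, a T cell signalling adaptor, at 0.256 and Klrd1 (CD94), a receptor of NK and T cells, at 0.273. Klrd1 was also among the nearest to Ms4a6b, at 0.249, after Sidt1 at 0.244. Of 8 NK cell genes 7 fell and Gzma did not pass the test (median -1.20), although Gzma passed without composition scaling, with a log2 fold change of -0.74 and an adjusted p of 0.034.

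Ms4a4c, the near copy of Ms4a4b, fell alongside it. Its reads were 181, 198 and 194 with elemental diet and 2185, 2233 and 1912 with saline, a log2 fold change of -3.17 (SE 0.08, edgeR adjusted p = 2.3e-13) or 9.02-fold. Annotated transcripts of the 2 genes share 66 windows of 75 bases, the read length, out of 1747 in Ms4a4c. Few reads of these transcripts could thus match both genes. On unique reads the log2 ratio of Ms4a4b to Ms4a4c was 0.60 ± 0.23 with elemental diet and 0.74 ± 0.17 with saline (mean ± SD, n = 3), and the groups overlapped (exact permutation p = 0.6, adjusted 0.6). Its nearest profiles were Cpne4 at 0.120 and Btla, an inhibitory receptor of B and T cells, at 0.138.

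The members known from monocytes and macrophages fell less far, apart from Ms4a4c above. Ms4a6d reads were 152, 98 and 91 with elemental diet and 778, 754 and 678 with saline. Its first elemental diet library was the highest of its group and still far below saline, and the gene was 5.29-fold lower (log2 fold change -2.40, SE 0.16, edgeR adjusted p = 2.7e-08). Its nearest profiles were Tnf, the inflammatory cytokine, at 0.175 and Actr3b at 0.195, both low, with Tnf at 1.35 ± 0.420 against 6.66 ± 0.363 normalized CPM. Ms4a4a, a marker of alternatively activated macrophages, had 139, 126 and 132 reads against 590, 502 and 427 and was 3.11-fold lower (log2 fold change -1.64, SE 0.14, edgeR adjusted p = 6.7e-08). Ms4a7, a marker of tissue macrophages, had 150, 124 and 102 reads against 459, 416 and 403 and was 2.78-fold lower (log2 fold change -1.47, SE 0.14, edgeR adjusted p = 3.4e-07), the smallest change of the 10 on total reads. The groups of both genes were well apart in reads and in normalized CPM.

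Ms4a7 kept about the same ratio to a lineage gene in both groups. The log2 ratio of Ms4a7 to Csf1r, the growth factor receptor of monocytes and macrophages, was -4.56 ± 0.27 with elemental diet and -4.55 ± 0.18 with saline (mean ± SD, n = 3), a difference of -0.01 (exact permutation p = 0.9, adjusted 0.9). Of 14 macrophage genes 13 fell (median -1.25) and Cd163 did not pass the test, although it passed without composition scaling, at -0.69 with an adjusted p of 0.03. The complement genes C1qa, C1qb and C1qc were 2.59-, 2.30- and 2.46-fold lower and the scavenger receptor Marco 3.04-fold lower. Of 12 monocyte genes 9 fell, Spn and F13a1 rose and Cd14 did not pass (median -1.10), and without composition scaling Cd14 passed as lower, at -0.34 with an adjusted p of 0.024. The lysozyme gene Lyz2 was 4.08-fold lower. Dectin-1 (Clec7a), the fungal sugar receptor known to work with the Ms4a4a protein, was at 5.57 ± 0.494 and 5.61 ± 1.20 normalized CPM and did not pass the test (log2 fold change -0.01, SE 0.18, adjusted p = 0.98). Trem2, a lipid receptor of macrophages genetically tied to the human MS4A cluster, rose 8.06-fold, from 15, 12 and 21 reads to 111, 124 and 86. Profiles nearest to Ms4a7 were Stap2 at 0.0741 and S100a4 at 0.101, and those nearest to Ms4a4a were Dyrk4 at 0.119 and Cyp4f37 at 0.126.

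**Figure D2:**
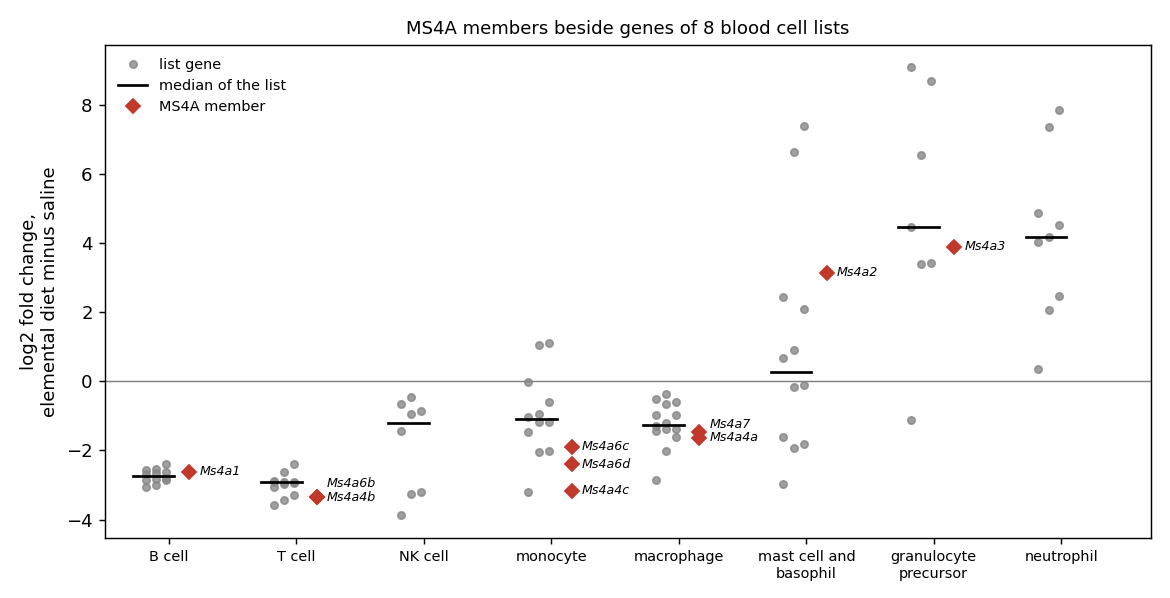
Log2 fold change (elemental diet minus saline) of the genes of 8 cell type lists (grey points, with the list median as a bar) and of the MS4A members placed beside them (red diamonds). Ms4a1 at -2.61 lies within the narrow B cell list, Ms4a7 and Ms4a4a lie near the macrophage median of -1.25, and Ms4a2 and Ms4a3 lie above 0 beside lists that hold both directions.

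Ms4a6c behaved differently depending on which of its reads were counted. Its total reads were 933, 1031 and 1110 with elemental diet and 4560, 4765 and 4682 with saline, 3.72-fold lower (log2 fold change -1.90, SE 0.08, edgeR adjusted p = 7.7e-10). Only 30.6% of these reads were unique with elemental diet and 26.6% with saline, where unique is the authors' own class, without a stated definition. Introns held 46.0% of its reads with elemental diet and 64.4% with saline. Over all genes introns held 8.39% to 8.82% and 13.7% to 14.4%. The share was also high in Ms4a4a, at 44.3% and 39.8%, and Ms4a4c, at 41.7% and 34.7%. It was low in Ms4a1, at 5.62% and 6.68%. The gene lies for 93.8% of its length inside BE692007, a noncoding transcript of the other strand, which fell 12.6-fold (log2 fold change -3.65, SE 0.07, edgeR adjusted p = 2.0e-14) from 5661, 5473 and 5510 reads to 400, 352 and 329. The strand setting of the counting was not given in the sources used here, so unspliced reads of the 2 genes cannot be told apart. Junction-spanning reads differed: BE692007 had 3 with elemental diet and 65 with saline, and Ms4a6c 738 and 2230. Of the 75-base windows of Ms4a6c transcripts 47.7% also occurred in BE692007. On exon reads Ms4a6c was 2.66-fold lower (log2 fold change -1.41), and its junction-spanning reads, 243, 269 and 226 against 708, 834 and 688, were 2.48-fold lower per effective library and 99.7% and 98.5% unique. The profiles nearest to Ms4a6c, on total reads, were Slc25a53 at 0.139 and Elac1 at 0.153.

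The 3 Ms4a6 genes did not fall equally. On unique reads the log2 ratio of Ms4a6b to Ms4a6c was 0.57 ± 0.24 with elemental diet and 2.21 ± 0.09 with saline (mean ± SD, n = 3), so that Ms4a6b lost 3.12-fold more than Ms4a6c, with groups that did not overlap. The ratio of Ms4a6d to Ms4a6c was -1.50 ± 0.41 and -0.75 ± 0.07, a difference of -0.74. Both exact permutation tests gave p = 0.1, the smallest that 3 against 3 can give, and 0.15 after adjustment over 3 paralog ratios. On unique exon reads the 2 differences were -1.87 and -1.26. Ms4a6b and Ms4a6c are the pair whose promoters share the 48-base run printed above and whose falls differed by the most among the paralog pairs compared.

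Ms4a1 also had few unique reads: 24.0% with elemental diet (2480 of 10336) and 23.4% with saline (18009 of 76892). Nearly all of its junction-spanning reads were unique, 99.5% and 99.7%, against 4.42% and 4.0% of its unspliced reads, which include reads within an exon. No 75-base window of its annotated transcripts occurs in another gene's transcripts. The whole of Ms4a1 lies inside the annotated span of 4930526L06Rik on the other strand, whose reads were 37 with elemental diet and 409 with saline. Over protein-coding genes with at least 300 reads, the median unique share was 100% for 6447 genes that overlap no other gene, 97.4% for 6358 with some other overlap, and 20.9% for 359 that lie wholly inside a gene of the other strand. In those 359 genes 3.87% of unspliced reads were unique at the median. The fold change of Ms4a1 did not depend on the choice: the log2 fold change was -2.61 on total reads, -2.61 on unique reads, -2.70 on exon reads and -2.72 on unique exon reads. For the other 8 members 92.5% or more of the reads were unique in either group.

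**Figure D3:**
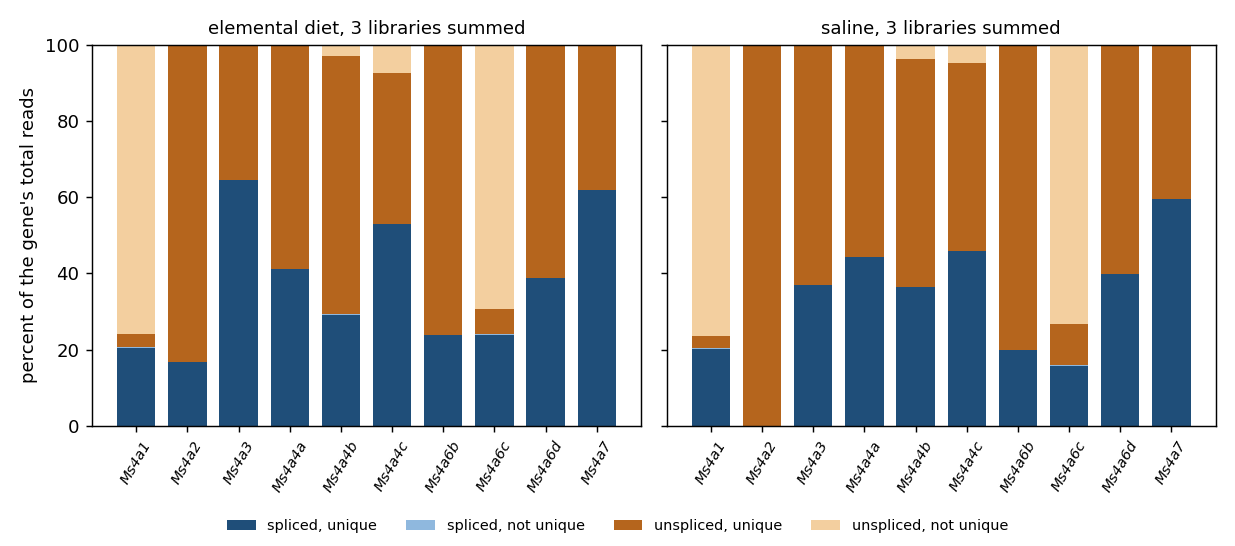
Share of each member's reads, in percent and summed over the 3 libraries of a group, that spanned a splice junction (blue) or did not (brown), with reads that were not unique in the pale shade. Ms4a1 and Ms4a6c stand out by their pale unspliced reads in both groups, and Ms4a2 has no spliced read in the saline libraries.

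**Figure D4:**
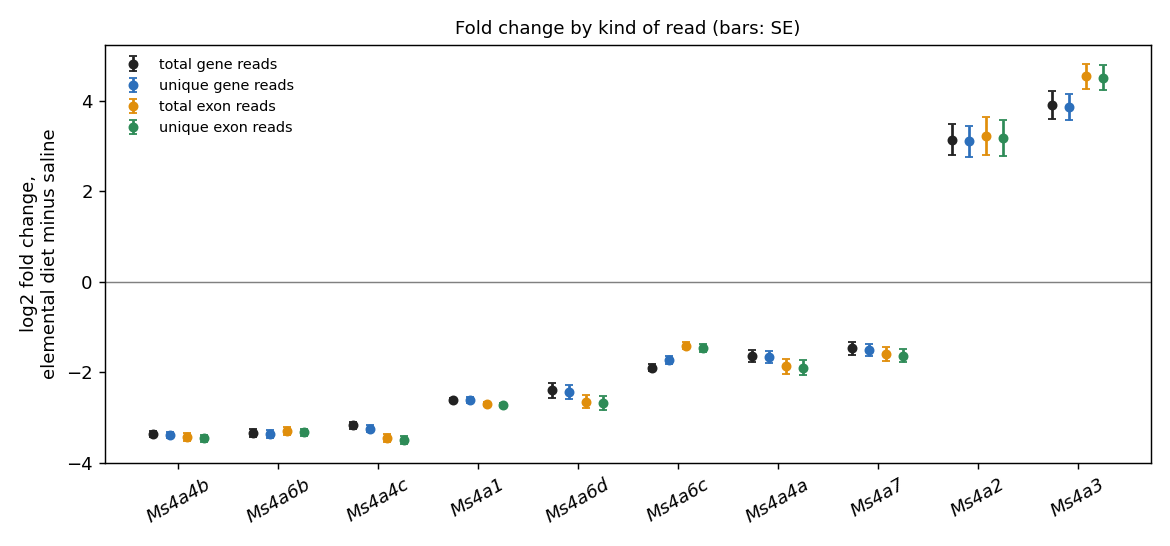
Log2 fold change with its SE for each member from 4 kinds of read: total gene, unique gene, total exon and unique exon reads. No member changes sign, Ms4a3 moves from 3.90 to 4.54 and Ms4a6c from -1.90 to -1.41 between total gene and total exon reads.

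Levels of different members were compared as TPM, the authors' length-scaled values from exon reads. With saline the order was Ms4a1 at 405 ± 1.78 TPM, Ms4a6b at 99.7 ± 4.88, Ms4a6c at 84.9 ± 3.80, Ms4a4c at 82.4 ± 5.68, Ms4a4b at 52.2 ± 3.50, Ms4a6d at 39.3 ± 2.12, Ms4a4a at 38.1 ± 5.84, Ms4a7 at 8.95 ± 0.364, Ms4a3 at 0.444 ± 0.111 and Ms4a2 at 0.393 ± 0.251 (mean ± SD, n = 3). Ms4a6c and Ms4a4c overlapped over the libraries, as did Ms4a6d with Ms4a4a and Ms4a3 with Ms4a2. With elemental diet Ms4a1 was still first at 50.5 ± 2.74 TPM and Ms4a6c second at 26.0 ± 1.25. The Ms4a6c values in TPM include unspliced exon reads, which cannot be separated from those of BE692007. Ms4a3, Ms4a4a and Ms4a6b followed at 8.52 ± 1.40, 8.50 ± 0.759 and 8.27 ± 0.942, which overlapped. Ms4a4c at 6.12 ± 0.264 overlapped with Ms4a6d at 5.10 ± 1.39, and Ms4a4b at 3.94 ± 0.256, Ms4a2 at 3.02 ± 0.839 and Ms4a7 at 2.41 ± 0.506 overlapped in turn. The 10 members summed to 122 ± 5.54 TPM with elemental diet and 811 ± 11.3 with saline. Ms4a1 made up 41.3% of the sum with elemental diet and 49.9% with saline, Ms4a6c 21.2% and 10.5%, Ms4a6b 6.76% and 12.3%, and Ms4a3 6.98% and 0.0547%.

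Along chromosome 19 (build GRCm38, as in the files) the 10 genes span 391 kb, from the start of Ms4a1 at 11249675 to the end of Ms4a3 at 11640851. Their order is Ms4a1 (11249675 to 11266241, minus strand), Ms4a7 (11321039 to 11336146, minus), Ms4a4a (11375523 to 11392790, plus), Ms4a4c (11404770 to 11427246, plus), Ms4a4b (11443553 to 11463549, plus), Ms4a6c (11469366 to 11482192, plus), Ms4a6b (11516512 to 11531256, plus), Ms4a6d (11586604 to 11604849, minus), Ms4a2 (11615523 to 11623719, minus) and Ms4a3 (11629496 to 11640851, minus). Ms4a2 and Ms4a3 are 5.8 kb apart, and Ms4a2 is 10.7 kb from Ms4a6d, which fell 5.29-fold. The change of direction thus falls between neighbours on the same strand, and the other members between that point and Ms4a1 all fell.

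**Figure D5:**
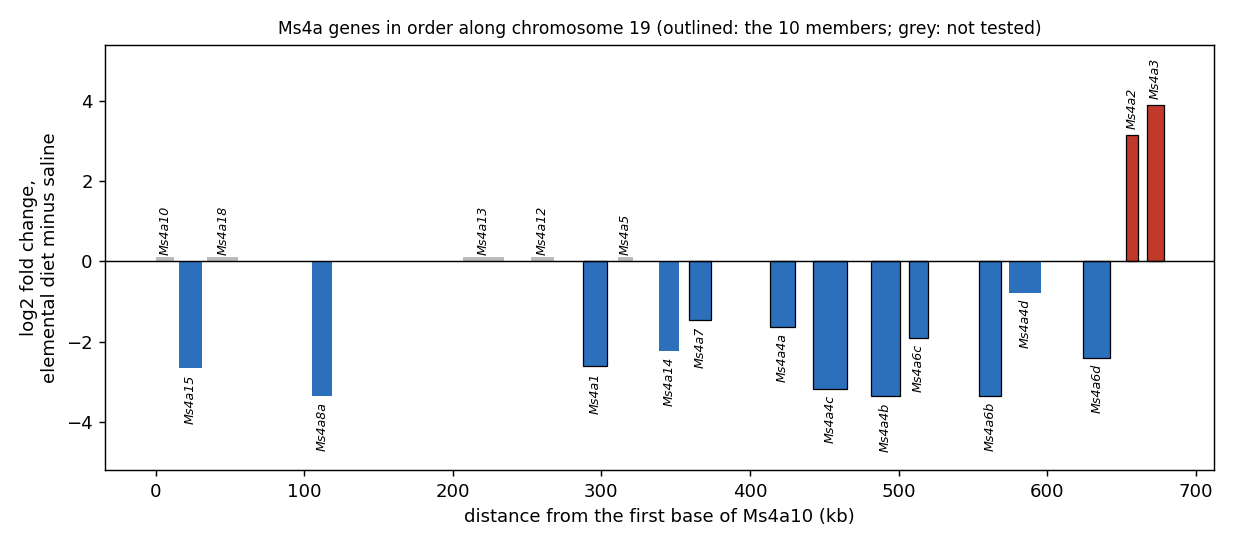
Log2 fold change (elemental diet minus saline) of the Ms4a genes by their place along chromosome 19, in kb from the first base of Ms4a10, each bar as wide as the gene, the 10 members outlined and untested genes in grey. Every tested gene up to Ms4a6d points down, and Ms4a2 and Ms4a3 at the far end point up.

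Of the 19 Ms4a rows in the files 14 were tested, of which 12 fell and 2, Ms4a2 and Ms4a3, rose. A list of 13 further family members had 11 in the files, counting the related Tmem176a and Tmem176b, and 6 of these were tested: all 6 fell, with a median of -1.80, and all 6 also fell under each of the other scalings, with medians of -2.10 to -1.75. Ms4a8a, known from epithelia and activated macrophages, counted 40, 24 and 10 reads with elemental diet and 329, 332 and 255 with saline and was 10.1-fold lower. Ms4a4d, the neighbour of Ms4a6b, fell 1.73-fold (log2 fold change -0.79, SE 0.14, edgeR adjusted p = 1.2e-04). Ms4a14 and Ms4a15 were near the limit of detection, with 26 and 7 reads in the elemental diet libraries together and 149 and 56 in the saline libraries. Tmem176a and Tmem176b, which are known to act as cation channels in dendritic cells, were 2.15-fold and 2.59-fold lower. Ms4a5, Ms4a12 and Ms4a18 had no read in any library, and Ms4a10 and Ms4a13 were too low to be tested.

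Among 10 known partners of MS4A proteins 4 rose, 5 fell and 1 did not pass the test, with a median of -0.19. Besides those above, the kinases Lyn and Syk, which act below the IgE receptor and the B cell receptor, fell 2.26-fold and 3.02-fold, and Cd40, a B cell costimulatory receptor reported to associate with CD20, fell 6.65-fold. Of 16 transcription factors of the marked lineages 13 fell and 3 rose (median -1.87). The 3 that rose were Gata1, a factor essential for red cells and active in mast cells, at 8.28-fold, Gata2 at 1.61-fold and Cebpe, a factor of late granulocyte maturation, from 4, 0 and 4 reads to 18, 36 and 20. The B cell factors Pax5, Ebf1, Pou2f2 and Pou2af1 were 7.13-, 7.44-, 5.72- and 4.90-fold lower. Spi1 (PU.1), a factor of myeloid and B cells, was 2.95-fold lower, Irf4 and Irf8 5.78- and 4.54-fold, the T cell factor Bcl11b 7.61-fold, and Mitf of mast cells 2.31-fold. Cebpa and Gfi1, which act in granulocyte precursors, fell 2.32-fold and 2.17-fold. Of 8 dendritic cell genes 4 rose and 3 fell (median -0.07), and without composition scaling 3 rose and 4 fell.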

How the data were processed

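Poly(A)-selected RNA of 6 libraries (3 elemental diet, 3 saline) was sequenced as paired 75-base reads, per the labels' protocols. The deposited files hold whole-number read counts per gene, total and unique, for exons, introns and splice junctions, per the file headers. TPM and RPKM were computed by the authors, per the file headers; TPM was used for levels between genes and RPKM was not used. The submitters' processing notes name builds GRCh37 and GRCm38; aligner, counter and strand setting were not given in the sources used here. Total gene counts were tested with edgeR 4.0.16 in R 4.3.3 (glmQLFit robust, glmQLFTest, TMM, filterByExpr), adjusted by Benjamini-Hochberg over 18303 genes at 0.05. The SE was approximated from the fold change and F (absolute value over root F). Normalized CPM use the TMM factors. Ratios used exact two-sided permutation tests with 0.5 added to reads. The procedure was tested on 5 simulated data sets with 200 genes changed in each. That is far fewer than were called here, so the simulation does not cover a large shift in library composition. Replicates of a group differed by more than sampling noise (median chi-square 2.82 to 5.23 times it). Promoter pairs were aligned globally.

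The members, 16 gene lists and alternatives were chosen with earlier results of these data known. Named are the members, all partners, transcription factors and further family genes, the 4 genes of each list with the highest TPM, and the 2 nearest profiles per member, without clone names, numbered predicted genes and receptor segments. BE692007 and 4930526L06Rik (overlap), Col1a1, Krt14 and list genes that did not pass, went against their list or changed with scaling were named after their values were seen, as were the tissue mast cell proteases. Values of some listed genes are not reported here. Alternatives were RLE, upper quartile or no composition scaling, no filter, DESeq2 1.42.0, unique gene, total exon and unique exon reads (the last added after the data were seen), a replicate block, and leaving out each library.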

Additional observations from a re-analysis of the deposited data

How the results depend on the processing

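All 10 members kept their direction and passed the test under all 15 alternatives, 150 comparisons in all, and the largest adjusted p was 5.5e-05, for Ms4a2. Leaving out 1 library in turn moved Ms4a2 between 2.80 and 3.50, Ms4a3 between 3.53 and 4.18 and, of the 8 that fell, Ms4a6d most, between -2.66 and -2.25. The number of genes called ranged from 12298 (unique exon reads) to 14942 (no filter) around 14303, and with 1 library left out from 13770 to 14675. Scaling moved the balance: 6951 genes rose and 7352 fell with TMM, 5601 and 9051 with upper quartile scaling, and 5407 and 9265 without composition scaling, where the median over all genes shifted from -0.08 to -0.39 and the members shifted with it. With replicate number as a replicate block 14241 genes and all 10 members were called, and no member changed its call. Same-numbered libraries deviated together weakly (correlations 0.12, -0.01 and 0.06), and the second elemental diet library correlated best with another number. With 3 libraries per group these values cannot decide whether same-numbered libraries were paired. The log2 difference between groups of the ratio of Ms4a6b to Ms4a6c, -1.64 on unique reads, was -1.44 on total reads and -1.87 on unique exon reads, and that of Ms4a6d to Ms4a6c moved from -0.74 to -1.26 on unique exon reads; the cause was not tested. The other 69 recomputed ratios moved by less than the spread between replicates. Depth limits Ms4a2 and Ms4a3 most, at 6 to 21 reads per saline library.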

Other observations

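Gm8369, a predicted gene that lies between Ms4a6c and Ms4a6b (chromosome 19, 11485938 to 11512577, plus strand, build GRCm38) and is in none of the lists, was picked out after its values were seen. Its reads were 290, 288 and 244 with elemental diet and 2317, 2209 and 2076 with saline, or 10.0 ± 0.586 against 65.7 ± 1.61 normalized CPM (mean ± SD, n = 3 each). It was 6.57-fold lower (log2 fold change -2.72, SE 0.07, edgeR adjusted p = 2.0e-13), between the falls of its neighbours Ms4a6c at -1.90 and Ms4a6b at -3.34, and nearly all of its reads were unique.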
